A study of Mus musculus with 12 samples.

Results

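The oligos described here carried 1 changed base at an outer end of a window that holds a homeodomain site. In 100 elements with a dimer site and 100 with a monomer site, a window of 13 bases around the site had been changed base by base, and the members are all elements of those series whose change lay at the first or the last window position. They were chosen by name and position alone, with no measured value. There were 1195 such oligos among 14987 elements, of which 13717 were modified. Each was paired with the unmodified element of its region, called its parent. Windows were read on the strand whose positions 2 to 7 matched TAATCC best, so position 1 is the base just before the core and position 13 is the far flank. A substitution such as C1A gives the native base, the window position counted from 1 on that strand, and the new base. The base before the core had 298 members in dimer windows and 300 in monomer windows, and the far flank had 297 and 300. The 5 changes missing from dimer windows carry the names of a separate k50 series of the same dimer elements, not of the base-by-base series, and were not counted as members.

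The study measured enhancer activity by CRE-seq, a reporter assay that reads many cloned elements in parallel through transcribed barcodes. Each 100-bp element was cloned in front of DsRed and 1 of 2 promoters, that of rhodopsin (pRho) or that of Crx (pCrx). Retinas of wild-type CD1 pups at postnatal day 0 received 30 micrograms of a library together with 30 micrograms of a CAG-GFP plasmid by electroporation, and all were cultured for 8 days as explants. Each promoter had 3 replicates of 5 pooled retinas, with a DNA and a cDNA library from each pool, which makes 12 libraries. Activity is the log2 ratio of cDNA to DNA counts after scaling, so 0 is close to the typical element of a library and not to a promoter without an element. An effect is the member's activity minus its parent's. The signal comes from whole retinas, so the cell types that carried the plasmids cannot be told apart.

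CRX is a homeodomain factor of photoreceptors that binds TAATCC and close relatives, and OTX2 shares this preference. Such proteins are called K50 homeodomains, after the lysine in the recognition helix that reads the bases following TAAT, while an arm of the protein reaches into the minor groove at the start of the core. They can bind a lone site as a monomer or a pair of opposed sites as a dimer. The bases next to a core are outside the letters that define the site, and the series of edge changes measures what each base there does to reporter activity.

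The sequences below are a selection from the members with large effects or promoter differences, and some members with larger ones are not shown. Each is given on the site's strand, 5′ to 3′, with 4 bases on either side of the window. The changed position, or its native base, is in capitals. Coordinates are those of the 100-bp element in mm9, taken as the middle of the named region.
Dimer chr7:146743037-146743136, native: cagcTtaagccacttaagcgc
Dimer chr7:146743037-146743136, T1G: cagcGtaagccacttaagcgc
Dimer chr11:54119023-54119122, native: ctccctaagctccttcTgtat
Dimer chr11:54119023-54119122, T13G: ctccctaagctccttcGgtat
Monomer chr6:31242227-31242326, native: taggAtaatcctgtctttgcc
Monomer chr6:31242227-31242326, A1T: taggTtaatcctgtctttgcc
Monomer chr9:26981826-26981925, native: atggCtaatcctccctgcctc
Monomer chr9:26981826-26981925, C1A: atggAtaatcctccctgcctc
Monomer chr14:21592856-21592955, native: aaagCtaatccttccaggcca
Monomer chr14:21592856-21592955, C1T: aaagTtaatccttccaggcca
Monomer chr17:44789159-44789258, native: taggTtaatcccactagcata
Monomer chr17:44789159-44789258, T1G: taggGtaatcccactagcata
Monomer chr4:115642333-115642432, native: ggccctaatccccctaGcttt
Monomer chr4:115642333-115642432, G13A: ggccctaatccccctaActtt
Monomer chr3:65007452-65007551, native: gggcttaatcctctaaTcccc
Monomer chr3:65007452-65007551, T13C: gggcttaatcctctaaCcccc
The windows of the chr9 and chr3 elements run on the minus strand of the deposited sequence and the others on its plus strand.

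The windows differed in how well they matched the K50 site. Of the monomer windows 97 matched TAATCC at all 6 places, and their core was TAAT in 99 and TTAT in 1. Of the dimer windows 53 matched at 6 places, 27 at 5 and 20 at 4. Their first core was TAAT in 75 and TAAG in 25, and 10 of these windows matched equally well on both strands. Read on the opposite strand, the second core of the dimer windows was TAAG in 60, AAAG in 21, GAAG in 8, TAAT in 6 and CAAG in 5. C was the commonest native base before the core, in 46 dimer and 60 monomer windows, followed by T in 28 and 30. A stood there in 16 and 9 windows, and G in 10 and 1. The native far flank was more even in monomer windows, with T in 33, C in 25, G in 24 and A in 18. In dimer windows it was G in 42, A in 25, C in 21 and T in 12.

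Library totals lay between 24726849 and 36500857 counts. A member had a median of 1532 to 2294 counts per library and never fewer than 37. Of the members 802 had 7 barcodes and 393 had 6. Because the replicates of a promoter share the same plasmids and barcodes, their spread leaves out differences between barcodes: the median standard error of a member's effect was 0.10 on pRho and 0.13 on pCrx across replicates, and 0.19 and 0.22 across barcodes. Calls are therefore given with both. Across members the effects of replicate pairs correlated at r = 0.77 to 0.85 on pRho and 0.70 to 0.74 on pCrx, as a description over oligos that share parents.

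Most flank changes left activity near that of the parent. On pRho 264 of the 1195 members fell and 223 rose (edgeR quasi-likelihood test, adjusted over all 13717 modified elements). These are 22.1% and 18.7% of the members, where 45.9% of all modified elements fell and 17.4% rose. On pCrx 260 members fell and 153 rose, or 21.8% and 12.8%, against 46.2% and 11.7% of all modified elements. Falls were thus less frequent than over the series, while the share of rises was near the background on both promoters. With barcodes as the units 68 members fell and 51 rose on pRho, or 5.69% and 4.27%, against 24.7% and 5.83% over the series. The pCrx counts then were 79 falls and 45 rises, or 6.61% and 3.77%, against 29.0% and 4.82%. Without replicate 3 the pCrx falls numbered 172.

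The drop in falls came at the step from the core to the edge of the window. Among the 5833 changes at positions 2 to 12, 47.7% fell on pRho and 49.1% on pCrx. Position 2, the T that opens the core, had falls for 54.5% of its 600 changes on pRho and 57.0% on pCrx, next to 19.7% and 19.6% at position 1. The other edge depended on the set. In dimer windows position 12 belongs to the second core, and 43.3% and 43.7% of its changes fell, against 24.6% and 21.5% at position 13. In monomer windows position 12 lies outside the site, and its shares of 23.3% and 26.7% were close to the 24.3% and 26.3% at position 13.

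Effect sizes followed the same order. The effects of all members had an SD of 0.39 on pRho and 0.42 on pCrx, against 0.63 and 0.69 over all modified elements. An effect between -0.25 and 0.25 was measured for 63.3% of members on pRho and 57.2% on pCrx, against 39.4% and 34.4% over the series. Effects beyond 1 in either direction were found for 30 members on pRho and 44 on pCrx. These few changes lay far outside the body of the distribution, which ran from -0.54 at the 5th percentile to 0.57 at the 95th on pRho and from -0.68 to 0.54 on pCrx.

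Averaged over windows, the base before the core had a mean effect close to 0 in dimer windows. It was 0.01 ± 0.25 on pRho and 0.03 ± 0.30 on pCrx (SD, n = 100 windows), with replicate values between -0.0049 and 0.017 for the former promoter and of 0.05, 0.04 and 0.00 for the latter. The far flank of dimer windows averaged -0.04 ± 0.29 and -0.06 ± 0.31 (SD, n = 100 windows). For comparison, position 2 of dimer windows averaged -0.29 on pRho and -0.42 on pCrx, and position 12 averaged -0.14 and -0.24. In monomer windows both flanks lay lower on pCrx than on pRho. The base before the core averaged 0.02 ± 0.39 on pRho and -0.08 ± 0.36 on pCrx (SD, n = 100 windows), and the far flank -0.03 ± 0.29 and -0.14 ± 0.39. The replicates did not overlap between promoters at either flank. Before the core they were 0.03, 0.02 and 0.02 on pRho and -0.07, -0.09 and -0.09 on pCrx, and at the far flank they were -0.02, -0.02 and -0.05 on pRho and -0.13, -0.18 and -0.13 on pCrx. The differences of -0.10 and -0.11 had p = 0.1 in two-sided exact permutation tests over 3 against 3 replicates, the smallest value this design can give. Such a shift was not particular to the flanks: at all 11 inner positions of monomer windows the mean effect was lower on pCrx as well, by differences from -0.03 to -0.16, and both flank differences lay within that range. In dimer windows the flank differences were 0.02 and -0.01, with exact p = 0.3 and 0.4, while all 11 inner positions were lower on pCrx, by differences from -0.02 to -0.22.

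The identity of the base at an edge was tested in the windows that had all 4 bases there. Before the core the base changed activity in 64 of 98 dimer windows on pRho and in 60 on pCrx, and in 71 and 62 of 100 monomer windows (edgeR, adjusted over all window positions). At the far flank the numbers were 72 and 62 of 97 dimer windows and 75 and 71 of 100 monomer windows. Over all window positions 84.1% passed on pRho and 76.0% on pCrx, so every edge stood below the background on its promoter. With barcodes as the units 77 edges passed on pRho and 76 on pCrx, at shares of 14.3% to 25%, against 38.0% and 39.9%. The median range between the highest and the lowest base was 0.32 to 0.50 at the edges and 0.67 to 0.83 at position 2. The low values were not particular to the edges. At positions 9 to 12 of monomer windows 67% to 75% passed on pRho and 56% to 70% on pCrx. With barcodes as the units 13% to 23% passed there, and the median range was 0.34 to 0.48.

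C had the highest mean activity before the core in monomer windows on both promoters and in dimer windows on pCrx. These levels are centred on the mean of the 4 bases in each window, so no parent serves as the common reference. In monomer windows C stood at 0.10 ± 0.20 on pCrx (SD, n = 100 windows), with replicate values of 0.10, 0.09 and 0.11. G was lowest at -0.08 ± 0.21, with -0.08, -0.08 and -0.09, so the 2 bases did not overlap between replicates although they did between windows. C was the highest base in 35 of 100 windows and the lowest in 14, and G was the highest in 13 and the lowest in 43. On pRho C stood at 0.05 ± 0.19 and A was lowest at -0.05 ± 0.28, with G and T at 0.00. In dimer windows C stood at 0.06 ± 0.20 on pCrx (SD, n = 98 windows), above the other bases in each replicate. By barcode means its level there was 0.03. A was the highest base in more of these windows on pCrx, 34 against 29 for C. On pRho C and G could not be ordered, at 0.03 ± 0.17 and 0.03 ± 0.18: G was above C in 2 of 3 replicates, and G and A were each the highest base in 30 windows against 24 for C. T was lowest in dimer windows, at -0.07 ± 0.21 on pRho and -0.08 ± 0.24 on pCrx. It was the lowest base in 31 dimer windows on pRho and in 42 on pCrx. The spans between the mean levels of the highest and lowest base were 0.10 and 0.14 in dimer windows and 0.09 and 0.19 in monomer windows, against 0.41 and 0.55, and 0.37 and 0.52, at position 2. Positions 9 to 12 of monomer windows had spans of 0.04 to 0.16 on pRho and 0.07 to 0.20 on pCrx.

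Members were also grouped by the base they lost or gained. Replacing a native C before a monomer core gave 47 falls and 9 rises among 180 members on pCrx, and 15 falls and 1 rise with barcodes as the units. The mean effect was -0.14 ± 0.26 there (SD, n = 60 windows), while on pRho it was -0.02 with 36 falls and 30 rises. Where the native base was T the pCrx changes split evenly, with 14 falls and 14 rises among 90 members. All 300 changes before monomer cores gave 71 falls and 29 rises on pCrx, or 23.7% and 9.67%, and 65 and 60 on pRho. With barcodes as the units the pCrx counts were 20 and 8, or 6.67% and 2.67%. The falls from a native C were thus near the share of all changes there. In dimer windows a new T before the core gave 18 falls and 9 rises among 72 members on pRho, and 9 falls and 1 rise with barcodes as the units. A new C there gave 5 falls and 16 rises among 54 members on pCrx. Removing a native T from dimer windows gave 8 falls and 25 rises among 82 members on pCrx. All 298 changes before dimer cores gave 53 falls and 52 rises on pRho, or 17.8% and 17.4%. They gave 46 and 53 on pCrx, or 15.4% and 17.8%. With barcodes as the units the pRho counts were 12 and 11. Differences between these groups of bases were not tested. The native base was the highest of the 4 in 35 monomer windows on pRho and in 37 on pCrx. In dimer windows it was the highest in 19 and 20 of 98 and the lowest in 19 and 23.

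The largest rises of all members came from 1 monomer window, chr6:31242227-31242326, where the native base before the core is A. The parent measured -1.20, -1.19 and -1.20 on pRho. With T it measured 1.73, 1.58 and 1.69, with G 1.26, 1.39 and 1.43, and with C 0.77, 0.32 and 0.98. Every replicate of the 3 variants lay above every replicate of the parent. The pRho effects of T, G and C were 2.86 ± 0.09, 2.55 ± 0.09 and 1.88 ± 0.13 (SE, n = 3), with edgeR adjusted p of 3.6e-19, 1.6e-18 and 1.2e-12. On pCrx the parent measured 0.69, 0.36 and -0.11, and the variants lay between 2.05 and 2.88, again without overlap. The pCrx effects were 2.46 for T, 1.87 for G and 2.21 for C, and with barcodes as the units the adjusted p of the 6 comparisons ran from 7.4e-06 to 0.00037. The 30 changes inside this window were spread widely: their pRho effects ran from -1.23 to 2.14 and their pCrx effects from -1.24 to 1.69. Of these changes 10 lay between -0.25 and 0.25 on pRho, where edgeR called 10 falls and 10 rises. On pCrx 11 lay within those limits, with 5 falls and 8 rises called. With barcodes as the units 0 of the inner changes passed as falls on either promoter, while 7 passed as rises for pRho and 6 for pCrx. The inner changes share the parent, so a rise as such was not particular to the edge of this window.

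The far flank of the same window also moved activity. T13G rose by 1.16 ± 0.14 on pRho and 1.46 ± 0.18 on pCrx (SE, n = 3). Its replicates of -0.23, -0.05 and 0.16 on pRho and 1.89, 1.57 and 1.85 on pCrx lay above the parent's. With barcodes as the units the pCrx rise passed (adjusted p = 0.0051) and the pRho rise did not (0.055). T13A went in opposite directions by edgeR, from the parent's level to -1.52, -2.11 and -2.0 on pRho, an effect of -0.68 ± 0.15, and to 1.37, 0.83 and 1.05 on pCrx, a rise of 0.77 ± 0.17. Over barcodes the pRho effect was only -0.19 (adjusted p = 0.77), so the fall and the opposite direction were lost, while the pCrx rise passed (0.014). T13C measured -0.14 on pRho, which did not pass, and rose by 1.04 on pCrx. On pCrx, changes on both sides of this site thus raised activity with either unit.

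The largest fall before a monomer core replaced a C on either promoter. At chr9:26981826-26981925 the parent measured -1.24, -0.86 and -1.07 on pRho and C1A -2.53, -2.18 and -2.39. On pCrx the parent measured 0.47, 0.11 and 0.53 and C1A -1.72, -1.59 and -1.32. The replicates did not overlap on either promoter. The effects were -1.31 ± 0.12 and -1.91 ± 0.14 (SE, n = 3), a 2.49-fold and a 3.76-fold decrease, with edgeR adjusted p of 3.3e-10 and 3.5e-10 and barcode p of 0.0028 and 3.5e-05. The other bases did less: C1G measured -0.20 and C1T 0.21 on pRho, neither of which passed, and they had smaller falls on pCrx, of -0.55 and -0.59. At chr14:21592856-21592955 the base that lowered activity was T. The parent measured 0.29, 0.59 and 0.50 on pRho and C1T -1.26, -0.72 and -1.11, an effect of -1.49 ± 0.12. On pCrx the effect was -1.12 ± 0.18 (SE, n = 3), from -0.13, -0.12 and 0.10 to -1.07, -1.49 and -0.95, and both passed with barcodes as the units (adjusted p = 0.0051 and 0.0013). C1A and C1G of this window did not pass on either promoter, with effects between -0.26 and 0.24. So A was the low base in the chr9 window and T in the chr14 window, although both cores read TAATCC.

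At chr13:104839111-104839210 the native base before the core is A. A1G had effects of -0.70 on pRho and -1.25 on pCrx and A1T of -0.44 and -1.11, while A1C measured -0.09 and 0.14 and did not pass. Its far flank fell with every base. G13C had effects of -1.23 on pRho and -1.02 on pCrx, G13A of -1.23 and -1.30, and G13T of -0.88 and -1.52. The 30 inner changes of this window went both ways, with 12 falls and 12 rises called by edgeR for pRho, 6 falls and 16 rises for pCrx, and only 6 and 3 of them lay between -0.25 and 0.25. With barcodes as the units only G13C and G13A on pRho and G13T on pCrx passed among these.

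Effects before dimer cores were smaller. The strongest fall was T1G at chr7:146743037-146743136, whose cores are both TAAG. The parent measured -0.25, -0.54 and -0.37 on pRho and the member -1.31, -1.58 and -1.46. On pCrx they measured -0.92, -1.19 and -1.14 against -2.22, -2.37 and -2.24. No replicates overlapped. The effects were -1.06 ± 0.09 and -1.19 ± 0.13 (SE, n = 3, edgeR adjusted p = 1.3e-10 and 1.5e-07), with barcode p of 0.00081 and 0.22. In this window all 3 far-flank changes fell as well, with effects of -0.68 on pRho and -1.38 on pCrx for A13C, -0.49 and -0.65 for A13G, and -1.06 and -0.71 for A13T. Of these 6 effects only those of A13G and A13T on pRho passed with barcodes as the units. Its 31 inner changes had medians of -0.04 and -0.41.

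A new T before the core made the other named falls of dimer windows. C1T at chr5:97383192-97383291 measured -1.78, -1.77 and -1.76 on pRho, below the parent's -0.90, -1.01 and -0.98. Its effects were -0.81 ± 0.11 on pRho and -1.07 ± 0.17 on pCrx (SE, n = 3), and both passed with barcodes as the units (adjusted p = 0.016 and 0.0033). G1T at chr1:170156436-170156535 had effects of -0.92 on pRho and -0.43 on pCrx. It measured -0.71, -0.68 and -0.56 on pRho against 0.20, 0.43 and 0.18 for its parent, and this change also makes an additional TAAT in the element. With barcodes as the units G1T passed on pRho (adjusted p = 0.0047) and not on pCrx (0.24). C1A and C1G of the chr5 window measured 0.15 and -0.11 on pRho and did not pass, and on pCrx C1G had an effect of -0.67, which passed with edgeR only.

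The named rises before dimer cores started from parents below the typical element. C1A at chr19:38805436-38805535 measured -0.59, -1.13 and -0.66 on pRho against -2.61, -1.93 and -2.15, a rise of 1.43 ± 0.16 (SE, n = 3), and measured 0.35 above its parent on pCrx, where the edgeR call was lost with the replicate block (adjusted p = 0.065). T1C at chr1:134310730-134310829 rose by 1.36 on pCrx, A1G at chr14:48846549-48846648 by 1.32 on pCrx, and T1A at chr7:118153862-118153961, which also removes a TAATCC on the other strand, by 1.28 on pRho. In all 4 windows the changes inside the window rose too on the same promoter. The median effect was 0.47 in the chr19 window, positive in 27 of 29 changes, and 1.31, 1.55 and 1.06 in the others, positive in 29 of 29, 27 of 28 and 30 of 30. The members share a parent with those inner changes, so the rises are not particular to the edge. With barcodes as the units only the chr19 rise on pRho passed clearly (adjusted p = 0.0081), and the chr7 rise lay at the threshold of 0.05.

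At the far flank no base led in both sets. In dimer windows the 4 mean levels spanned 0.07 on pRho and 0.06 on pCrx, with T highest on pRho at 0.03 ± 0.21 (SD, n = 97 windows) and G at 0.03 ± 0.35 and T at 0.01 ± 0.26 on pCrx, where their order changed between replicates. In monomer windows A was lowest on both promoters, at -0.05 ± 0.28 and -0.07 ± 0.35, and C was highest on pRho at 0.06, while T and G both stood at 0.03 on pCrx. A new A at the far flank of monomer windows gave 26 falls and 8 rises among 82 members on pCrx, and 25 and 13 on pRho. All 300 changes there gave 79 falls and 35 rises on pCrx, or 26.3% and 11.7%. They gave 73 and 62 on pRho, or 24.3% and 20.7%. The native base of the monomer far flank was the highest of the 4 in 44 of 100 windows on pCrx and the lowest in 12, while on pRho it was the highest in 30 and the lowest in 27.

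Dimer windows with a TAAG first core had more negative mean edge effects than those with TAAT. At the far flank the 25 TAAG windows averaged -0.14 ± 0.41 on pRho and -0.15 ± 0.33 on pCrx, and the 75 TAAT windows -0.01 ± 0.24 and -0.03 ± 0.30 (SD over windows). Before the core the means were -0.07 and -0.10 with TAAG and 0.03 and 0.07 with TAAT. The counts ran the same way: at the far flank 23 of 74 members fell and 5 rose with TAAG on pRho, against 50 and 44 of 223 with TAAT. All 297 changes at the dimer far flank gave 73 falls and 49 rises on pRho, or 24.6% and 16.5%. Windows are not replicates, and the difference between TAAG and TAAT was not tested. The TAAG group includes chr11:101945658-101945757, whose orientation was a tie. Its far-flank effects on pRho were -0.50, -2.37 and -1.30, and none of them passed with barcodes as the units. The TAAG means were not computed without it, nor without another TAAG window, the one with the largest fall of all.

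That window, chr11:54119023-54119122, went from above the typical element to far below it with 1 particular base at the far flank. The parent measured 0.87, 1.05 and 0.82 on pRho and T13G measured -1.77, -1.79 and -2.31. On pCrx the parent measured 1.20, 0.84 and 1.13 and T13G -2.27, -2.23 and -1.97. The other bases stayed near the parent's level, with A at 0.80 ± 0.14 and C at 1.02 ± 0.08 on pRho and at 0.97 ± 0.13 and 1.36 ± 0.11 on pCrx (SD, n = 3). The rise of 0.31 with C on pCrx passed with edgeR (adjusted p = 0.018) and not with barcodes as the units (0.098). The range between bases was 2.97 on pRho and 3.52 on pCrx, the widest of any dimer far flank on both, and the base identity test gave an edgeR adjusted p of 3.8e-24 and 5.2e-25. T13G lay 7.27-fold below its parent on pRho and 9.26-fold on pCrx, and passed with barcodes as the units (adjusted p = 9.3e-06 and 4.3e-07, 7 barcodes each). It neither made nor removed any of the 5 motifs searched. The 31 inner changes of this window had medians of -0.19 and -0.26.

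The other named far-flank falls of dimer windows were less secure. G13C at chr11:101945658-101945757 measured -4.13, -4.13 and -4.50 on pRho against -1.84, -1.80 and -2.09, an effect of -2.37 ± 0.18 (SE, n = 3). The inner changes of that window had a median of -1.04 on pRho, its orientation was a tie, and with barcodes as the units G13C did not pass (adjusted p = 0.086). G13T of the same window had an effect of -1.30 on pRho and measured 0.15 on pCrx. Among the rises, A13G at chr11:72488951-72489050 gained 1.36 on pCrx and measured -0.03 on pRho. A13C at chr13:54391651-54391750 gained 1.03 on pRho and measured -0.08 on pCrx, where its parent was at 1.14, 1.32 and 1.17. Neither of these 2 rises passed with barcodes as the units. C13G at chr7:118153862-118153961 and G13T at chr4:53646714-53646813 rose by 1.26 on pRho and 1.29 on pCrx, in windows whose inner changes rose by a median of 1.06 and 1.93 on those promoters, and both passed with barcodes as the units (adjusted p = 0.023 and 0.0024).

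Among monomer windows the far flank had its largest fall at chr4:115642333-115642432, again with 1 base only. The parent measured -0.33, -0.20 and 0.06 on pRho and G13A -2.24, -2.0 and -2.06. On pCrx they measured 0.35, 0.40 and 0.70 against -2.58, -2.72 and -2.38. With C this position measured 0.15 ± 0.14 on pRho and 0.20 ± 0.08 on pCrx, and with T 0.19 ± 0.07 and 0.53 ± 0.09 (SD, n = 3). The 3 other bases therefore lay within 1 log2 unit of each other on each promoter and A stood alone below them. The effects of G13A were -1.94 ± 0.10 and -3.04 ± 0.12 (SE, n = 3), with barcode p of 1.0e-05 and 4.3e-07. Of the motifs searched none was made or removed.

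Other far flanks of monomer windows moved with several bases or in both directions. A window on chromosome 18, whose sequence is not shown, fell with every base on both promoters. There C13G took the parent from 1.54, 1.61 and 1.87 to 0.41, 0.71 and 0.61 on pRho, an effect of -1.10, and from 1.59, 1.73 and 1.48 to 0.07, 0.17 and -0.15 on pCrx, an effect of -1.57. The effects of C13T were -1.0 and -1.36 and those of C13A -0.70 and -0.75. C13G was 1 of 15 members that removed a CANNTG, the E-box bound by basic helix-loop-helix factors. The median effects of these 15 were only -0.09 on pRho and -0.05 on pCrx. For pRho edgeR called 5 of them as falls and 3 as rises, and for pCrx 5 each way. Inner changes of the chromosome 18 window, 29 in number, had medians of -0.46 and -0.58. Of them 23 were called as falls for pRho, 20 for pCrx and 0 as rises. With barcodes as the units 13 and 16 passed as falls. Whether the lost E-box lowered activity was not tested. At chr12:84788426-84788525 the 3 bases disagreed: C13T rose by 0.76 on pRho and 1.66 on pCrx, while C13A and C13G fell on pRho, with effects of -0.77 and -0.62, and measured -0.14 and -0.29 on pCrx, which did not pass. That C13T value rests on 3 barcodes on pRho and 2 on pCrx that passed the DNA count filter. G13C at chr15:66793972-66794071 rose by 1.60 on pRho and 0.88 on pCrx, in a window whose inner changes had medians of 1.04 and 0.71, and passed with barcodes as the units on pRho (adjusted p = 0.016) and not on pCrx (0.15).

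The flanks of a window were compared with each other by summing the counts of all changes at each. Changes before the core left dimer windows less active than changes at the far flank in 20 of 100 windows and more active in 32 on pRho, and in 22 and 34 on pCrx (edgeR). Over positions 1 to 12 of all windows 47.8% were less active than position 13 and 21.7% more active on pRho, and 49.8% and 19.6% on pCrx. Monomer windows gave 27 and 28 on pRho and 23 and 31 on pCrx. By edgeR the share of windows more active with the change before the core was above that background in both sets. The background includes the core positions, whose mean effects were negative, so it does not compare the flanks with each other. The mean differences between the flanks were only 0.05 ± 0.28 and 0.09 ± 0.35 in dimer windows and 0.05 ± 0.37 and 0.06 ± 0.33 in monomer windows (SD, n = 100 windows). Tested over barcodes, the dimer counts were 5 lower and 8 higher on pRho and 10 and 18 on pCrx, and the monomer counts 6 and 8, and 8 and 11. The background of that test was 31.6% lower and 9.0% higher on pRho and 36.9% and 10.2% on pCrx. The share of higher windows was then below the background on pRho in both sets, and above it on pCrx.

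Flank effects differed between promoters less often than effects over the series. The test of the difference found 172 members lower on pCrx and 108 higher, or 14.4% and 9.04%, against 26.5% and 17.1% of all modified elements (edgeR, 12 libraries). Over barcodes 17 and 1 passed, or 1.42% and 0.0837%, against 10.1% and 3.37%. The edgeR counts were 105 and 55 without replicate 1 of both promoters, and 103 and 61 without replicate 3. Monomer windows supplied most of the first group, with 56 members lower on pCrx and 20 higher before the core and 57 and 28 at the far flank. Dimer windows gave 24 and 30 before the core and 35 and 30 at the far flank. Of the falls, 118 were called on both promoters, which is 44.7% of those on pRho and 45.4% of those on pCrx. Of the rises, 86 were shared, or 38.6% and 56.2%. Calls of opposite sign were found for 29 members, and 528 were called on neither promoter. The same shares were not computed over all modified elements, so this overlap cannot be called particular to the flanks.

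The largest promoter differences were in monomer windows. T1G at chr17:44789159-44789258 rose on pRho from -1.50, -1.68 and -0.98 to -0.11, -0.23 and 0.22, an effect of 1.35 ± 0.11. On pCrx it went from -0.22, 0.29 and 0.12 to -0.05, -0.51 and -0.38, an effect of -0.38 ± 0.16 (SE, n = 3) whose replicates overlapped the parent's. The difference of -1.73 ± 0.20 had an edgeR adjusted p of 1.1e-08 and a barcode p of 0.0041. T1A and T1C of this window rose as much on pRho, by 1.18 and 1.35, and rose by 0.46 and 0.37 on pCrx, so all 3 replacements of T raised pRho activity. The 29 inner changes, which share the parent, had medians of 0.22 on pRho and -0.29 on pCrx. For them edgeR called 13 rises and 1 fall on pRho and 1 rise and 14 falls on pCrx. With barcodes as the units they gave 8 rises and 0 falls on pRho and 1 and 0 on pCrx. A difference in this direction was thus not particular to the edge. The pCrx effect of T1G was not stable: without replicate 2 it was -0.17, with an edgeR adjusted p of 0.43.

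T13C at chr3:65007452-65007551 removed a second TAATCC, on the same strand, whose T after TAA is the last base of the window. It measured 0.55, 0.29 and 0.71 on pRho against 0.12, 0.05 and 0.30, an effect of 0.36 ± 0.09 that did not pass with barcodes as the units (adjusted p = 0.20) and in which the lowest member value lay just below the highest parent value. On pCrx it measured -0.46, 0.02 and -0.09 against 1.07, 1.34 and 1.11, an effect of -1.35 ± 0.12 (SE, n = 3) without overlap. The difference of -1.71 ± 0.15 passed with edgeR and with barcodes as the units (adjusted p = 6.7e-11 and 0.00064). T13A and T13G, at the same base, had effects of 0.27 and 0.20 on pRho, of which the first passed, and fell on pCrx with effects of -0.86 and -0.42. The 30 inner changes of this window had medians of 0.15 on pRho and -0.62 on pCrx. For them edgeR called 13 rises and 4 falls on pRho and 2 rises and 22 falls on pCrx. With barcodes as the units they gave 2 rises and 1 fall on pRho and 0 and 14 on pCrx. Here too the direction of the difference was not particular to the edge. The largest difference of all, -2.07 ± 0.22 for C1G at chr5:107698100-107698199, came from a pRho rise of 1.70 against -0.36 on pCrx and did not pass with barcodes as the units (adjusted p = 0.32). In the other direction T13A of the chr6 window had 1.45, G13T at chr11:101945658-101945757 had 1.44 and A13G at chr11:72488951-72489050 had 1.39, and none of these passed with barcodes.

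Changes at the edges sometimes made or removed a short motif, searched on both strands of the whole element. TAAT was made by 43 members and removed by 26, TAATCC, which contains TAAT, by 4 and 13, TAATTA, the Q50 homeodomain site, which also contains TAAT, by 2 and 0, CANNTG by 13 and 15, and TGCTGA, part of the site for NRL, by 1 and 3. Of the 1270 unmodified elements 93.5% held TAAT, 63.7% TAATCC, 6.61% TAATTA, 39.9% CANNTG and 12.5% TGCTGA. Making a TAAT gave 15 falls and 9 rises on pRho and 16 falls and 4 rises on pCrx, with median effects of -0.13 and -0.21. Removing a TAATCC gave 1 fall and 7 rises on pRho and 7 falls and 4 rises on pCrx, with median effects of 0.30 and -0.34, over 13 members from 5 windows. Over barcodes removing a TAATCC gave 0 falls and 4 rises on pRho and 4 falls and 2 rises on pCrx. The TAATCC counts cover few windows, and none of the motif counts was tested against the other members.

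Some edges moved as a whole. In 64 dimer and 72 monomer windows at least 1 change before the core was called on pRho, but all changes there fell together in only 2 and 4 windows and rose together in 4 and 8. At the far flank all 3 changes fell in 7 dimer and 7 monomer windows on pRho and in 8 and 9 on pCrx. Most called windows therefore had a mixture of called and uncalled bases. In the authors' deposited table, which lists 1153 of the members, 90 fell and 80 rose on pRho and 89 and 49 on pCrx, against 28.1% falls and 8.63% rises of all listed elements on pRho and 27.5% and 4.71% on pCrx.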

How the data were processed

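Barcode counts of 12 libraries were used as the authors deposited them, whole numbers per barcode and library. Per the labels, barcodes were amplified by PCR (21 and 6 cycles) with no molecular identifiers mentioned, and the counting tool was not given in the sources used here. Positions are in mm9, the build in the submitters' processing notes. No annotation of that build was at hand, so elements were not assigned to genes. The authors' deposited log2 expression table was not used. Their deposited table of comparisons, with log2 fold changes and adjusted p-values, entered only as a named alternative, and its columns were identified from their headers.

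For each element the counts of its barcodes were added up, with at least 10 DNA counts in every DNA library required of member and parent. Effects were tested with edgeR 4.0.16 (quasi-likelihood, TMM, R 4.3.3) as the interaction of allele with cDNA against DNA, over all 13717 modified elements, with Benjamini-Hochberg adjustment at 0.05. Base identity, flank and promoter differences were interactions fitted likewise. With barcodes as units, log2((cDNA + 1)/(DNA + 1)) per barcode was averaged over replicates and compared with moderated variances (limma 3.58.1). Other alternatives were DESeq2 1.42.0, RLE scaling, other count minimums, each replicate left out and a replicate block. DNA and cDNA of a number come from 1 pool, per the labels' protocols, but their deviations correlated at only -0.04 to 0.05. P-values measure the spread between pools of retinas. The scripts were tested on simulated counts. Descriptions over windows are means with the SD over windows, which are not replicates.

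Members, lists and rules were chosen with earlier results of these data known. Named members are the 2 largest falls and rises per promoter, set and flank with adjusted p under 0.05 and 1 sign in all 3 replicates, the edges with the widest range between bases, and the 3 largest promoter differences each way. Other bases of their windows were added after seeing values.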

Additional observations from a re-analysis of the deposited data

Results flagged for a closer look

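The members below had effects that differed between promoters in edgeR's test of the difference, given as the log2 effect on pCrx minus that on pRho. Among monomer windows it was -2.07 for C1G at chr5:107698100-107698199, -1.73 for T1G at chr17:44789159-44789258, -1.71 for T13C at chr3:65007452-65007551 and -1.10 for G13A at chr4:115642333-115642432. Of these the last 3 also passed with barcodes as the units. Smaller negative differences were -0.72 for G13C at chr15:66793972-66794071, -0.68 for A1G at chr6:31242227-31242326, -0.60 for C1A at chr9:26981826-26981925, -0.55 for A1G at chr13:104839111-104839210 and -0.47 for C13G of the window on chromosome 18. Positive ones were 1.45 for T13A of the chr6 window and 0.90 for C13T at chr12:84788426-84788525.

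Among dimer windows the differences were 1.44 and 1.29 for G13T and G13C at chr11:101945658-101945757, 1.39 for A13G at chr11:72488951-72489050, 0.84 for G13T at chr4:53646714-53646813, 0.79 for T1C at chr1:134310730-134310829, 0.78 for A1G at chr14:48846549-48846648 and 0.49 for G1T at chr1:170156436-170156535. Negative values were -1.11 for A13C at chr13:54391651-54391750, -1.09 for C1A at chr19:38805436-38805535, -0.70 for A13C at chr7:146743037-146743136 and -0.60 for C13G at chr7:118153862-118153961. None of the dimer differences named here passed with barcodes as the units.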

How the results depend on the processing

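The largest dependence was on the unit of replication. Over barcodes the member calls were 68 falls and 51 rises for pRho and 79 falls and 45 rises for pCrx, base identity calls at the flanks 77 and 76, calls of the base before the core against the far flank 11 lower and 16 higher on pRho and 18 and 29 on pCrx, and promoter difference calls 17 lower and 1 higher on pCrx. The authors' deposited table gave 90, 80, 89 and 49 member calls. Replicates of a promoter share plasmids and DNA was read without molecular identifiers, so p-values across replicates cover the spread between pools only. DESeq2, RLE scaling, a minimum of 100 DNA counts, no minimum and the replicate block kept every count of member calls within 1.5 times. With the replicate block, which pairs the DNA and cDNA of a pool, there were 261 falls and 224 rises for pRho, and 257 falls and 155 rises for pCrx. Among the named members it ended the pCrx calls of C1A at chr19:38805436-38805535 (edgeR adjusted p = 0.065) and T1A at chr7:118153862-118153961 (0.051) and made the promoter difference of A1T at chr6:31242227-31242326 pass (0.034), and it changed no other call among them.

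Leaving out each replicate in turn gave 180 to 251 falls and 156 to 221 rises for pRho. For pCrx it gave 172 to 204 falls and 110 to 122 rises, the lowest without replicate 3 for falls on pCrx. Base identity calls ranged from 206 to 281 on pRho and 189 to 212 on pCrx. Calls of the base before the core as lower than the far flank ranged from 31 to 41 on pRho and 25 to 37 on pCrx, with the lowest counts without replicate 1 and replicate 3. Promoter difference calls ranged from 103 to 143 lower and 55 to 74 higher on pCrx.

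Mean flank effects moved by more than the spread between replicates when taken as medians over windows, at -0.0158 and 0.00323 before the dimer core on pRho and pCrx, -0.0172 and -0.0354 at the dimer far flank, and -0.0358 and -0.12 before the monomer core. With only parents above the median activity they were -0.0364 and -0.0521 before the dimer core, -0.0907 and -0.126 at the dimer far flank, -0.106 and -0.13 before the monomer core, and -0.101 and -0.257 at the monomer far flank. The sign before the core was then negative in dimer windows on both promoters and in monomer windows on pRho. The measured parent activity is also subtracted in each effect, so choosing high parents by itself lowers these means. The change of sign can therefore not be read as a result about the flanks. Strict orientation gave -0.0203 and -0.0312 at the dimer far flank. Before the monomer core on pRho, barcode means gave 0.0105 and the authors' deposited values 0.00459, and those values gave -0.0506 at the monomer far flank. The centred level of C by barcode means was 0.0338 before the dimer core on pCrx, 0.0644 before the monomer core and 0.071 at the monomer far flank on pRho, and that of G at the dimer far flank on pCrx was 0.0381 with strict orientation and 0.0118 by barcode means.

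Of the 58 called effects of the named members, 25 lost their call with barcodes as the units, 2 to 3 when a replicate was left out, 1 with DESeq2 and none with RLE scaling or another count minimum. Of their 22 called promoter differences 19 did with barcodes and 5 without each replicate. Of the 8 named base identity results 1 did with barcodes, before the core at chr1:134310730-134310829 on pCrx. No called effect changed sign.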
